A study of Mus musculus with 8 samples.

Results

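The genes described here are 38 targets and components of hepatic fatty acid oxidation under the nuclear receptor PPAR alpha, chosen as the array probes whose annotated gene name is on a fixed list of members. All 38 were measured, among 15338 genes kept in all, through 51 of 41174 probes. They comprise 2 transcription factors, 3 microsomal, 10 peroxisomal and 15 mitochondrial members, 2 that work in both peroxisomes and mitochondria, 2 cytosolic members and 4 secreted or cell-surface proteins. The arrays carried liver RNA of wild-type (AIM+/+) and knockout (AIM-/-) mice of C57Bl/6 background. AIM, the apoptosis inhibitor of macrophage, is a secreted macrophage protein encoded by Cd5l. Wild-type and knockout mice alike had eaten normal chow, counted as 0 weeks, or had been kept on a high-fat diet (HFD) for 6, 12 or 20 weeks. The 8 arrays hold 1 per genotype and time. The labels give neither the age of the mice nor the number of animals behind an array, so age and time on the diet cannot be told apart.

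PPAR alpha is a fatty acid sensor of the hepatocyte. It pairs with the retinoid X receptor and binds direct repeats of a hexamer spaced by a single base, from which it switches on uptake, activation and oxidation of fatty acids, chiefly in fasting. Mitochondria shorten medium and long chains for energy, with entry controlled by carnitine palmitoyltransferase 1. Peroxisomes shorten very long and branched chains, and microsomal Cyp4a enzymes hydroxylate the omega end of the chain.

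Because the receptor binds direct repeats, the promoters of the members were searched for the repeat of AGGTCA, any base and AGGTCA again, on both strands, with at most 2 mismatches over its 12 fixed letters, from 250 bases before to 50 after the annotated start (RefSeq, GRCm38.p6). A promoter entry was found for 29 of 38 members. Of these, 4 held a match (13.8%), against 3.86% of all 32841 promoters searched and 4.40% of all genes. The single hexamer AGGTCA, which lies inside the repeat and so overlaps it, was found in 7 of 29 members (24.1%) in 16.3% of all promoters and in 18.1% of all genes. The 250 bases before the start of 3 of the 4 are shown, since they carry the match in full, with the match in capitals. Fabp1 (1 mismatch) and Acot4 (2 mismatches) hold the repeat on the opposite strand, beginning at positions -67 and -13 from the start, and Creb3l3 (2 mismatches) on the same strand at -209 of 1 of its 2 annotated starts. The windows are chr6:71199629-71199878 (plus strand), chr12:84038129-84038378 (plus strand) and chr10:81092592-81092841 (minus strand).
Fabp1: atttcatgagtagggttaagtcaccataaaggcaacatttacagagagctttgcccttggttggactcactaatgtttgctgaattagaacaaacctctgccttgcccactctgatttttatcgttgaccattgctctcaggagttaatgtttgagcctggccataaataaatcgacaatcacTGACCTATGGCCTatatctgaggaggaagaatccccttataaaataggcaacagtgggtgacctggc
Acot4: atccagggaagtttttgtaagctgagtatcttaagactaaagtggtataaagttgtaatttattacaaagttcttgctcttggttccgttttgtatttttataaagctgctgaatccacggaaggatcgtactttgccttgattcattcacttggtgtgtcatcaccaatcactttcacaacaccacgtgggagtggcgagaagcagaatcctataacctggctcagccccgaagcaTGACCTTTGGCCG
Creb3l3: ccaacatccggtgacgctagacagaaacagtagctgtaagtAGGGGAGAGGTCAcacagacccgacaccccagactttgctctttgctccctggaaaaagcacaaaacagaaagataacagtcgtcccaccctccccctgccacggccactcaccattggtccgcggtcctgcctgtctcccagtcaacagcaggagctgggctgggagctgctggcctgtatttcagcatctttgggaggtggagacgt

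The fourth match, in Slc25a20, lies 6 bases after the start and reads AGGTGAAAGGTCG. These matches describe letters in a window. On the arrays the 4 genes did not move as a group: the differences between diet and chow, given below, were 1.55 for Acot4, 0.73 for Slc25a20, 0.22 for Creb3l3 and -0.02 for Fabp1 on the log2 scale.

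Between 18586 and 21119 probes per array were well above background, by the mark of the scanner software, and no probe was saturated. Printed signals are processed intensities scaled so that all arrays share their 75th percentile, and they are compared only within a probe. Cd5l itself gave 11792 to 30606 on the 4 wild-type arrays and 90.9 to 173 on the 4 knockout arrays. Whether its probe lies in the deleted stretch was not analysed here. Hepatocyte markers were well above background on all 8 arrays for 6 of 6 measured genes, and of the adipocyte list Adipoq, Plin1 and Lep were not kept. The fourth, Retn, gave 9.34 and 23.1 on chow and 14.9 to 73.2 on the diet, and was not well above background on all 8 arrays. Both 20-week arrays stand apart from the other 6: Xist gave 805 and 764 against at most 155 elsewhere, and the Y-linked gene Ddx3y 5.56 and 4.57 against at least 1034. The chow arrays also differ from each other. Of 13 measured clock genes 8 were at least 2-fold higher on the knockout than on the wild-type chow array and 1 was at least 2-fold lower. Of all genes, 7.25% were at least 2-fold apart between these arrays and 4.34% at least 2-fold lower on the knockout one. In some it is the wild-type chow array that lies away from the other 7, as in Arntl at 319 against 21.9 to 117 and Dbp at 11034 against 34473 to 76151. The 4 wild-type arrays share a slide and scan and the 4 knockout arrays another, so slide and genotype cannot be told apart. In bulk liver, fewer cells of a type and less RNA per cell cannot be told apart.

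High-fat diet was compared with chow by a linear model with week and genotype as terms, in which the diet difference is the mean of 6, 12 and 20 weeks minus chow on the log2 scale. Vnn1, Pex11a, Crat, Ucp2 and Decr1 rose, by 2.02-fold to 8.40-fold, and no member was called lower with genes read from their brightest probe. A further Cyp4a12 probe, given below, was called lower. With 5 of 38 called, against 2.33% of all genes and 1.54% called higher (limma, Benjamini-Hochberg adjusted p under 0.05 over all 15338 genes), the coefficient was above 0 in 35 of 38 members and in 47.3% of all genes. The median was 0.71 over the members and -0.02 over all genes. The 33 members not called had adjusted p-values from 0.0539 to 0.981, 13 of them under 0.1. At an unadjusted p under 0.05, 30 members were higher, against 14.1% of all genes. The probes of the called members lie, in the coordinates of the array files (mm8), on chromosome 10 at 23594134 to 23594193 (Vnn1), chromosome 7 at 79610850 to 79610909 (Pex11a) and at 100373382 to 100373441 (Ucp2), chromosome 2 at 30224173 to 30224232 (Crat) and chromosome 4 at 15844647 to 15844706 (Decr1). Their place within exons or untranslated regions was not analysed here.

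The arrays show the same pattern without a model. In 27 of 38 members each of the 6 diet arrays lay above both chow arrays, as in 10.5% of all genes, and in 0 members did they all lie below, against 10.6%. The 11 members whose diet and chow arrays overlapped were Creb3l3, Cyp4a10, Cyp4a12, Cyp4a14, Ehhadh, Crot, Pdk4, Acadvl, Acaa2, Acot1 and Fabp1. Without both 20-week arrays the count was 27 (13.7% of all genes), without the knockout chow array 27 (19.4%) and without the wild-type chow array 33 (20.8%). The called members rest on all arrays together. Left without the wild-type chow, knockout chow, knockout 6-week, or any 12-week or 20-week array, the fit called 0 members and 0 of all genes. Without the wild-type 6-week array it called 4 members, Vnn1 and Crat with Acot2 and Fgf21 (0.776% of all genes). The fit called 0 members without both 12-week or both 20-week arrays and 7 without both 6-week arrays (3.4% of all genes). With all 8 arrays it called 0 members when dim probes were not filtered out (0.0948%), 14 with normexp background correction (4.52%) and 17 with a variance trend (6.83%).

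**Figure D1:**
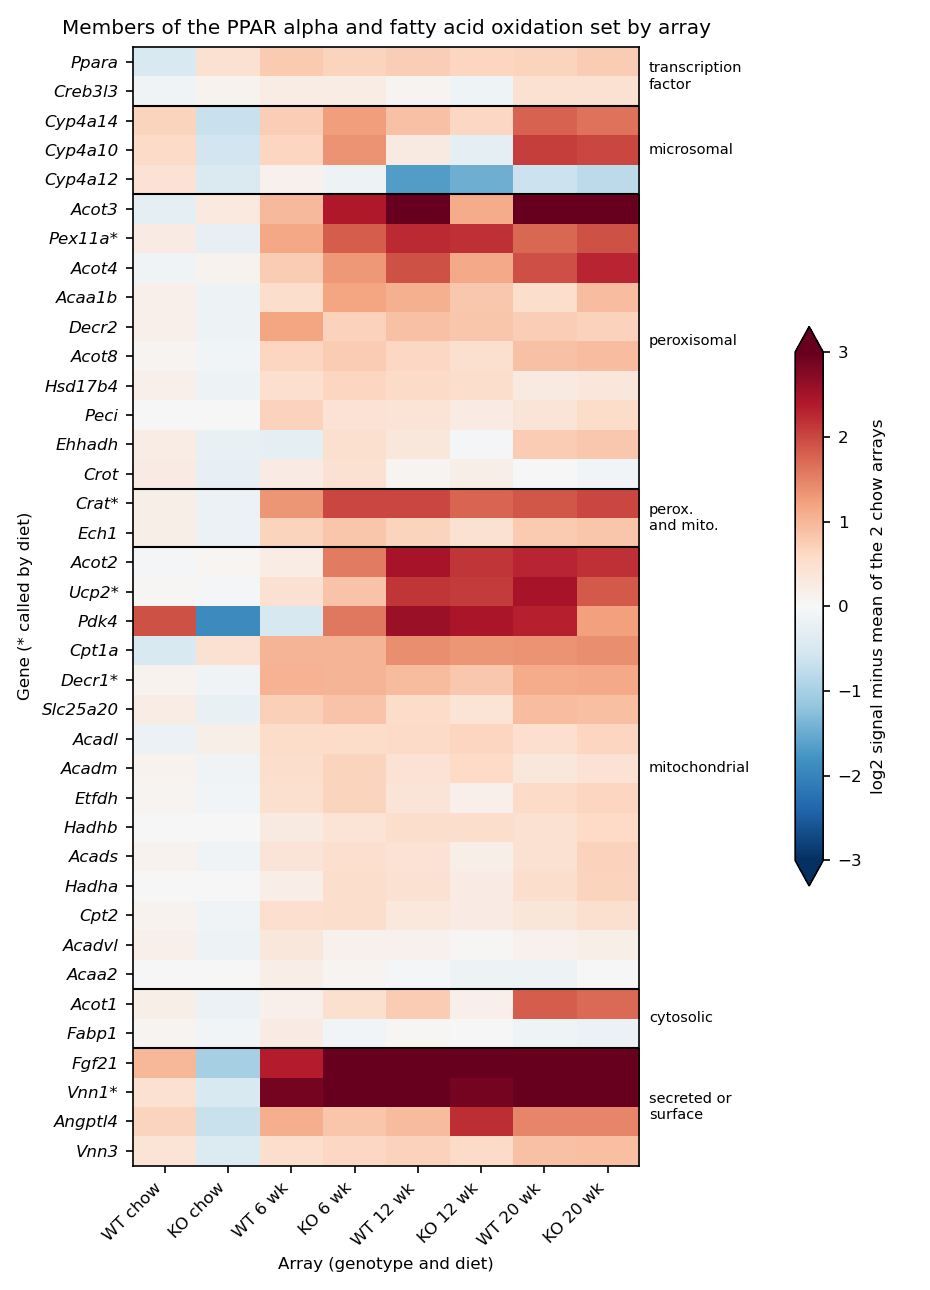
Heat map of the 38 members (rows, grouped by role) on the 8 arrays (columns, genotype and diet); colour is the log2 scaled signal minus the mean of both chow arrays, and an asterisk marks the 5 members called by diet. Most rows are red on all 6 diet arrays, and Cyp4a12 is the row that is bluest at 12 weeks.

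Markers of other liver cells were read on the same arrays. The summed signal of 5 stellate cell markers was 1635 and 1735 on the chow arrays and 1601 to 4734 on the diet arrays, with 1 of 5 called. The summed signal of 7 Kupffer cell markers was 13765 and 14981 on chow and 12749 to 20758 on diet, with 0 of 7 called by limma. Hepatocyte markers summed to 645302 and 670165 on chow and 529689 to 772854 on diet. The part of these cells in the members' values was not tested.

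The receptor itself, Ppara, gave scaled signals of 3017 on the wild-type chow array and 7126, 6885 and 6540 at 6, 12 and 20 weeks in the wild type. In the knockout it gave 5660 on chow and then 6601, 6425 and 7046. The wild-type chow array was the lowest of the 8, and both chow arrays lay below all diet arrays. The diet difference was 0.71 (SE 0.24, 1.64-fold, adjusted p = 0.153) and did not pass. Creb3l3, a liver transcription factor that acts with PPAR alpha on Fgf21, gave 18459, 23053, 21036 and 27255 in the wild type and 21081, 23028, 18000 and 27021 in the knockout. Its diet and chow arrays overlapped, with a difference of 0.22 (SE 0.12, adjusted p = 0.319).

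The microsomal members are the omega-hydroxylases Cyp4a10, Cyp4a12 and Cyp4a14, neighbours on chromosome 4. Cyp4a14 gave 58571, 61540, 67579 and 124239 in the wild type and 22983, 87148, 56055 and 114216 in the knockout, at 0, 6, 12 and 20 weeks. The knockout chow array was the lowest and both 20-week arrays the highest, with 1 knockout diet array, at 12 weeks, below wild-type chow. Its diet difference was 1.15 (SE 0.36, 2.22-fold, adjusted p = 0.139). Cyp4a10 gave 4366, 4575, 3552 and 12405 in the wild type and 1975, 7460, 2441 and 11764 in the knockout, again highest at 20 weeks. Its difference of 1.01 (SE 0.36, adjusted p = 0.172) did not pass either. Cyp4a12 (now Cyp4a12a) stood the other way, with 6313, 5057, 1442 and 2959 in the wild type, 3409, 4207, 1674 and 2684 in the knockout, and a diet difference of -0.77 (SE 0.23, adjusted p = 0.129).

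The probes of these genes disagreed. Close copies may share hybridisation, which was not tested, and which copy each probe reads could not be settled here. A further Cyp4a12 probe, on chromosome 4 at 114830670 to 114830729 (mm8), gave 23419, 19026, 2712 and 42.2 in the wild type and 12845, 9785, 5553 and 45.4 in the knockout. Both 20-week arrays were at least 59.7-fold below the lowest other array. Fitted by itself, this probe fell by 7.38 on the log2 scale at 20 weeks against the mean of 6 and 12 weeks (SE 0.45, 166-fold, limma adjusted p = 0.0222 over 21379 probes, 0.164% of them called) and had a diet difference of -3.71 (SE 0.43, adjusted p = 0.0410, 1.16% called). The probe used above, at 114825736 to 114826668, differed by 0.07 (SE 0.24) in the same 20-week comparison. Of the 3 Cyp4a10 probes, 1 had a diet difference of -0.26 (SE 0.17) and the others 1.01 and 0.95. The same 20-week arrays carry the Xist signal. Of 10 measured genes known to be higher in male liver, 5 had both 20-week arrays below the other 6, with a summed signal of 405590 and 414397 at 20 weeks and 346934 to 756866 elsewhere. Of 8 known to be higher in female liver, 6 had both 20-week arrays above the other 6, with sums of 295575 and 302693 against 82512 to 266712. The shares of all genes with these patterns were not counted, so how unusual these counts are is not known. Slco1a1, a male-biased organic anion transporter, gave 2421, 2906, 64.5 and 5.48 in the wild type and 2627, 883, 27.0 and 4.56 in the knockout. The part of sex in the Cyp4a12 values was not tested.

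**Figure D2:**
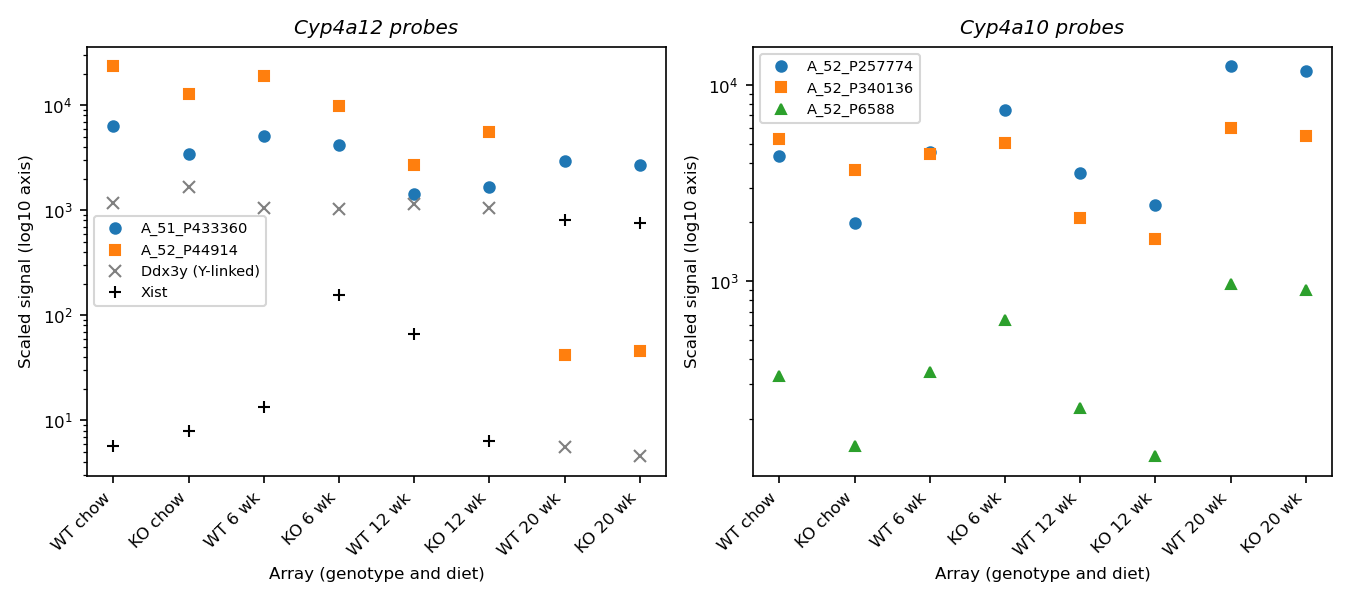
Scaled signal (log10 axis) of each probe of Cyp4a12 (left, with Xist and the Y-linked Ddx3y) and Cyp4a10 (right) on the 8 arrays, 1 point per array. The square Cyp4a12 probe drops from at least 2712 on the other arrays to 42.2 and 45.4 on the 20-week arrays while the round probe stays at 2959 and 2684.

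Of the 10 peroxisomal members, Pex11a rose, and all 10 had a coefficient above 0. Pex11a, which drives peroxisome division, gave 18110, 33852, 71579 and 50293 in the wild type and 12815, 53532, 69428 and 57606 in the knockout. Both chow arrays lay below all diet arrays, and both 12-week arrays were the highest. It was higher on diet by 1.84 (SE 0.24, 3.57-fold, adjusted p = 0.0462). Quantile normalisation of the arrays ended this call.

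Of the peroxisomal members 3 are acyl-CoA thioesterases, which release free fatty acids from coenzyme A. Acot3 gave 28.6, 68.6, 323 and 851 in the wild type and 43.3, 185, 75.7 and 1211 in the knockout, lowest on chow and highest at 20 weeks. Its difference was 2.89 (SE 0.69, adjusted p = 0.0912), and since only 1 of 2 chow arrays was well above background the size rests partly on background. Acot4 differed by 1.55 (SE 0.28, 2.94-fold, adjusted p = 0.0614), from 488 and 562 on chow to between 889 and 2539 on diet. Acot8 differed by 0.72 (SE 0.12, adjusted p = 0.0539), from 3694 and 3250 to between 4844 and 6530. The thioesterase genes Acot1 to Acot4 lie side by side on chromosome 12 and are close copies, so signal may be shared among them.

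Ehhadh, the bifunctional hydratase and dehydrogenase of peroxisomal beta-oxidation, differed by 0.34 (SE 0.27, adjusted p = 0.468), with the wild-type 6-week array the lowest of the 8 at 4392 and the 20-week arrays the highest at 9145 and 9408. Acaa1b, a peroxisomal thiolase, differed by 0.85 (SE 0.24, adjusted p = 0.119) and Hsd17b4, the other bifunctional enzyme, by 0.48 (SE 0.13, adjusted p = 0.117). Decr2, the peroxisomal dienoyl-CoA reductase, differed by 0.84 (SE 0.14, adjusted p = 0.0548), from 4713 and 3841 on chow to between 6861 and 9711 on diet. Peci (now Eci2), an enoyl-CoA isomerase, differed by 0.46 (SE 0.13). Crot, the carnitine octanoyltransferase, differed by 0.15 (SE 0.17), with diet and chow arrays overlapping. Apart from Ehhadh and Crot, these enzymes had both chow arrays below all diet arrays.

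Crat and Ech1 act in both peroxisomes and mitochondria. Crat, carnitine acetyltransferase, gave 1679, 3745, 5932 and 5420 in the wild type and 1314, 5994, 4950 and 6003 in the knockout. No diet array overlapped the chow arrays, and Crat rose by 1.83 (SE 0.23, 3.55-fold, adjusted p = 0.0439). Ech1, a dienoyl-CoA isomerase, gave 17279, 24127, 24078 and 26407 in the wild type and 13437, 27232, 20960 and 27031 in the knockout, likewise without overlap. Its difference was 0.71 (SE 0.14, adjusted p = 0.0726).

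Of the 15 mitochondrial members, Decr1 and Ucp2 rose, and 14 had a coefficient above 0. Decr1, the mitochondrial dienoyl-CoA reductase needed for unsaturated chains, gave 267, 510, 476 and 536 in the wild type and 228, 501, 435 and 542 in the knockout. The 6 diet arrays lay within a narrow band above both chow arrays. Decr1 was higher on diet by 1.01 (SE 0.11, 2.02-fold, adjusted p = 0.0374). Its other probe gave 1.13 (SE 0.18, adjusted p = 0.0549 over probes). Ucp2, an uncoupling protein family member that is also expressed in macrophages, gave 150, 202, 656 and 820 in the wild type and 145, 266, 633 and 529 in the knockout. Values at 6 weeks lay above chow and below all later arrays. Ucp2 was higher by 1.64 (SE 0.21, 3.13-fold, adjusted p = 0.0462), and a further probe of it by 2.17 (SE 0.20, adjusted p = 0.0308 over probes).

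**Figure D3:**
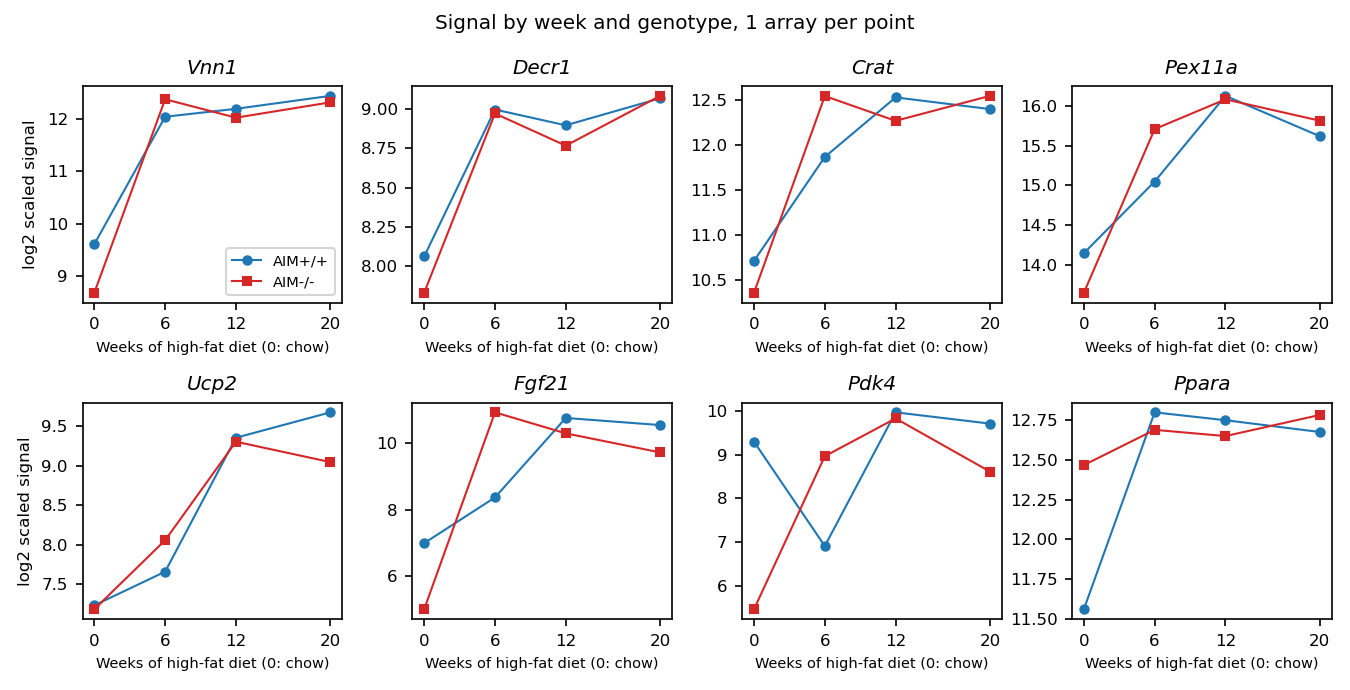
Log2 scaled signal of 8 members against weeks of high-fat diet (0 is chow), 1 array per point, wild type in blue and knockout in red; lines join arrays of different mice. Vnn1, Decr1, Crat, Pex11a and Ucp2, the 5 called members, lie above both chow values at all 3 diet times, whereas wild-type Pdk4 is at 630 on chow and 120 at 6 weeks.

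Entry of fatty acids into mitochondria was covered by 3 members. Cpt1a, the carnitine palmitoyltransferase that controls entry, had 4592 and 8732 on the wild-type and knockout chow arrays and 12757 to 16585 on diet, a difference of 1.24 (SE 0.23, 2.37-fold, adjusted p = 0.0640). Slc25a20, the carnitine-acylcarnitine carrier, differed by 0.73 (SE 0.15, adjusted p = 0.0724), and Cpt2, its inner-membrane partner, by 0.41 (SE 0.12, adjusted p = 0.121). All 3 had both chow arrays below all diet arrays, and none passed.

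Acot2, the mitochondrial thioesterase, gave 43.5, 53.1, 253 and 219 in the wild type and 47.1, 133, 199 and 207 in the knockout. The wild-type 6-week array lay close to chow and the later arrays well above it, with a difference of 1.81 (SE 0.34, adjusted p = 0.0662). Pdk4, the kinase that shuts off pyruvate dehydrogenase, gave 630, 120, 1004 and 840 in the wild type and 44.2, 501, 912 and 392 in the knockout. Its chow arrays were 14.3-fold apart, and 3 of the 6 diet arrays lay between them. The difference was 1.62 with an SE of 1.09 (adjusted p = 0.396), and -0.43 without the knockout chow array.

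The acyl-CoA dehydrogenases carry out the opening step of each cycle, by chain length. Acadl, for long chains, differed by 0.58 (SE 0.12, adjusted p = 0.0741), Acadm, for medium chains, by 0.50 (SE 0.12, adjusted p = 0.0975), and Acads, for short chains, by 0.44 (SE 0.14, adjusted p = 0.146). Acadvl, for very long chains, differed by 0.16 (SE 0.12), and its arrays overlapped. Hadha and Hadhb, the subunits of the trifunctional protein, differed by 0.43 (SE 0.14) and 0.46 (SE 0.10), and Etfdh, which passes the electrons to ubiquinone, by 0.49 (SE 0.13). Acaa2, the mitochondrial thiolase, had signals of 139504 and 136609 on chow and 123987 to 157315 on diet, and a difference of -0.01 (SE 0.11), which was 0.21 after quantile normalisation. These 8 genes had small spread, with no array more than 1.77-fold from another within a gene.

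Of the cytosolic members, Acot1 gave 4543, 4461, 6830 and 14267 in the wild type and 3554, 5586, 4462 and 13110 in the knockout. Both 20-week arrays stood above the rest, and the remaining diet arrays overlapped chow. Its diet difference was 0.85 (SE 0.20, adjusted p = 0.0926). Fabp1, the abundant fatty acid carrier of the hepatocyte, gave 247554, 280247, 241987 and 214461 in the wild type and 224241, 222583, 234886 and 209584 in the knockout. These overlapped, with a difference of -0.02 (SE 0.12, adjusted p = 0.941) that was 0.17 after quantile normalisation.

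The secreted and cell-surface members held the largest differences. Vnn1, the pantetheinase vanin 1, gave 784, 4193, 4653 and 5521 in the wild type and 413, 5278, 4141 and 5069 in the knockout. All diet arrays lay far above both chow arrays and close to each other from 6 weeks on. Vnn1 rose by 3.07 (SE 0.25, 8.40-fold, adjusted p = 0.0268). Vnn3, which lies next to it on chromosome 10, differed by 0.70 (SE 0.21, 1.62-fold, adjusted p = 0.136), from 2687 and 1506 on chow to between 2902 and 3757.

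Fgf21, a hormone of fasting released by the liver, gave 128, 331, 1731 and 1493 in the wild type and 32.2, 1945, 1256 and 844 in the knockout. The knockout chow value was not well above background, and all diet arrays lay above both chow arrays. The diet difference was 4.10 (SE 0.87) and did not pass (adjusted p = 0.0768). A further Fgf21 probe had 3.63 (SE 0.80, adjusted p = 0.0872 over probes). Angptl4, an inhibitor of lipoprotein lipase, gave 23627, 31916, 28908 and 40817 in the wild type and 9393, 26450, 69597 and 40815 in the knockout. The knockout 12-week array was the highest and the knockout chow array the lowest, with a difference of 1.34 (SE 0.49, adjusted p = 0.178).

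Set side by side, the compartments differed in size and in spread. The median diet difference was 1.01 for the 3 microsomal, 0.78 for the 10 peroxisomal and 0.50 for the 15 mitochondrial members, against -0.02 for all genes. This order is that of the listed members only. Among the other measured genes of the pathway, the median was 0.05 for 31 peroxisomal and 0.11 for 27 mitochondrial genes. Diet and chow arrays did not overlap in 0 of 3, 8 of 10 and 12 of 15, against 10.5% of all genes. Each diet array was also set against the chow array of its genotype, which 3 arrays then share. The peroxisomal medians were 0.63, 0.62 and 0.57 at 6, 12 and 20 weeks in the wild type and 0.85, 0.75 and 1.01 in the knockout. The mitochondrial medians were 0.38, 0.46 and 0.49 in the wild type and 0.64, 0.50 and 0.74 in the knockout, below the peroxisomal median on 6 of 6 diet arrays. The microsomal medians swung from -0.30 (wild type, 12 weeks) to 2.31 (knockout, 20 weeks). Members are not replicates, so the compartments were described and not tested against each other. The microsomal median of 1.01 is the value of 1 gene, Cyp4a10, on its brightest probe. Other probes of Cyp4a10 gave -0.26 and 0.95, and the median was 0.57 with the mean of a gene's probes. The microsomal median also rests on its chow arrays: it was 0.43 without the knockout chow array, 1.60 without the wild-type chow array and 0.50 without both 20-week arrays.

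**Figure D4:**
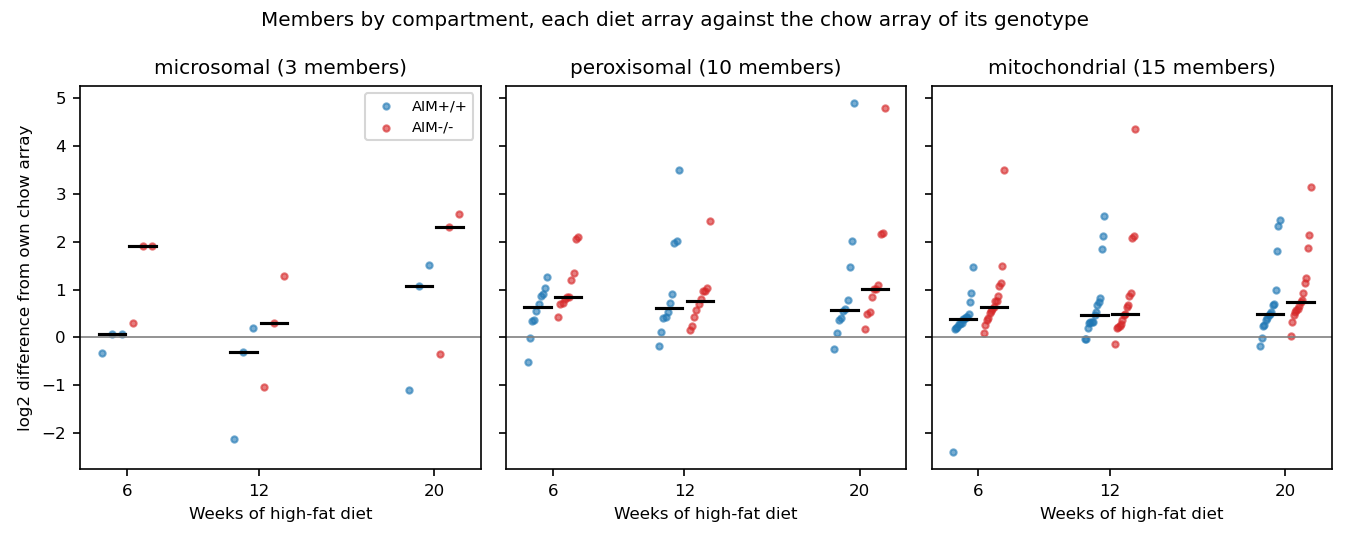
Log2 difference of each member from the chow array of its own genotype at 6, 12 and 20 weeks, for microsomal, peroxisomal and mitochondrial members (panels), wild type in blue and knockout in red; points are genes and black bars medians. Peroxisomal bars lie between 0.57 and 1.01, mitochondrial bars between 0.38 and 0.74, and microsomal bars spread from -0.30 to 2.31.

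Time on the diet was compared in 2 contrasts. Between 12 and 6 weeks, limma called 0 members (0% of all genes), and 3 members had an unadjusted p under 0.05 against 17.7% of all genes. These were Ucp2 at 1.47 (SE 0.26, adjusted p = 0.138), Acot2 at 1.41 (SE 0.42, adjusted p = 0.208) and Cyp4a12 at -1.57 (SE 0.28, adjusted p = 0.138). Between 20 weeks and the mean of 6 and 12, limma again called 0 members, against 0.156% of all genes. There 6 members had an unadjusted p under 0.05, all higher at 20 weeks, against 13.3% of all genes in either direction and 7.36% higher. They were Acot3 at 2.93 (SE 0.73, adjusted p = 0.247), Cyp4a10 at 1.54 (SE 0.38, adjusted p = 0.247), Acot1 at 1.38 (SE 0.21, adjusted p = 0.137), Acot4 at 0.82 (SE 0.29), Ucp2 at 0.77 (SE 0.22) and Creb3l3 at 0.36 (SE 0.13). The arrays compared there also differ in Xist and Y-linked signal, whose part was not tested.

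The effect of AIM was asked by comparing genotypes over all weeks. No member was called by limma, against 0.0326% of all genes, and 0 members had an unadjusted p under 0.05, against 5.59%. Coefficients of knockout minus wild type ran from -0.75 (Pdk4, SE 0.95) to 0.25 (Acot2, SE 0.30), with a median of -0.04. Ppara differed by 0.20 (SE 0.20). The adjusted p was 0.9996 for all members.

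Within a week only 1 array per genotype can be set side by side, which allows no test, and members were counted when at least 2-fold apart. On chow 5 members were lower in the knockout and 0 higher, against 7.25% of all genes 2-fold apart and 4.34% lower. On the probes used, Pdk4 was 14.3-fold lower (630 against 44.2), Fgf21 at least 3.83-fold lower, Cyp4a14 2.55-fold, Angptl4 2.52-fold and Cyp4a10 2.21-fold lower. Other probes differed in size. A further Fgf21 probe gave 39.0 on wild-type and 30.0 on knockout chow, a log2 difference of -0.38. The other Cyp4a10 probes differed by -0.54 and -1.18 on the log2 scale. By any amount 28 of 38 were lower, against 48.3% of all genes. Those that stood the other way included Cpt1a at 1.90-fold and Ppara at 1.88-fold higher. The knockout chow array was the lowest of the 8 for 24 of 38 members (63.2%), against 16% of all genes. The wild-type chow array was the lowest for 9 (23.7%), against 13.8% of all genes.

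Genes outside the set also differed on these chow arrays. Arntl, a core clock activator, was at 319 on wild-type and 25.8 on knockout chow, and Dbp, a clock output factor, at 11034 and 76151. G6pc, the last step of glucose release, was at 34173 and 902, and Igfbp1, a fasting-induced binding protein, at 40864 and 6823. Both come from a list of 14 measured feeding and fasting genes, whose median difference was -0.06 on the log2 scale. Of the 14, 4 were at least 2-fold lower and 2 at least 2-fold higher in the knockout (7.25% of all genes 2-fold apart). Fasn, also on the list, was at 144596 and 49172, and Asns at 1289 and 6043. The part of these clock, feeding and fasting genes in the members' differences was not tested, and the labels do not give the hour or feeding state at collection.

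At 6 weeks 4 members were at least 2-fold higher in the knockout and 0 lower, against 6.57% of all genes 2-fold apart and 3.06% higher. Fgf21 was 5.88-fold higher (1945 against 331), Pdk4 4.16-fold, Acot3 2.70-fold and Acot2 2.51-fold. Genes outside the set also differed on the 6-week arrays. Cyp2b9 was at 72.2 in the wild type and 10638 in the knockout, and Hsd3b5 at 12133 and 145. The part of what sets these arrays apart in the members' differences was not tested. At 12 weeks (4.56% of all genes 2-fold apart) Angptl4 was higher, at 69597 against 28908 (2.54% of all genes higher), and Acot3 4.27-fold lower, at 75.7 against 323 (2.02% lower). By any amount 33 of 38 members were lower in the knockout at 12 weeks, with a median of -0.14, against 50.5% of all genes. In contrast 26 of 38 were higher in the knockout at 6 weeks and 23 of 38 at 20 weeks. The shares of all genes higher at these 2 times are not given here. Their medians over all genes were -0.05 and 0.03. At 20 weeks (4.16% apart, 2.17% lower) Pdk4 was 2.14-fold lower and the median was 0.04. Pdk4, Fgf21, Acot3 and Angptl4 thus appear with opposite signs at different weeks.

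**Figure D5:**
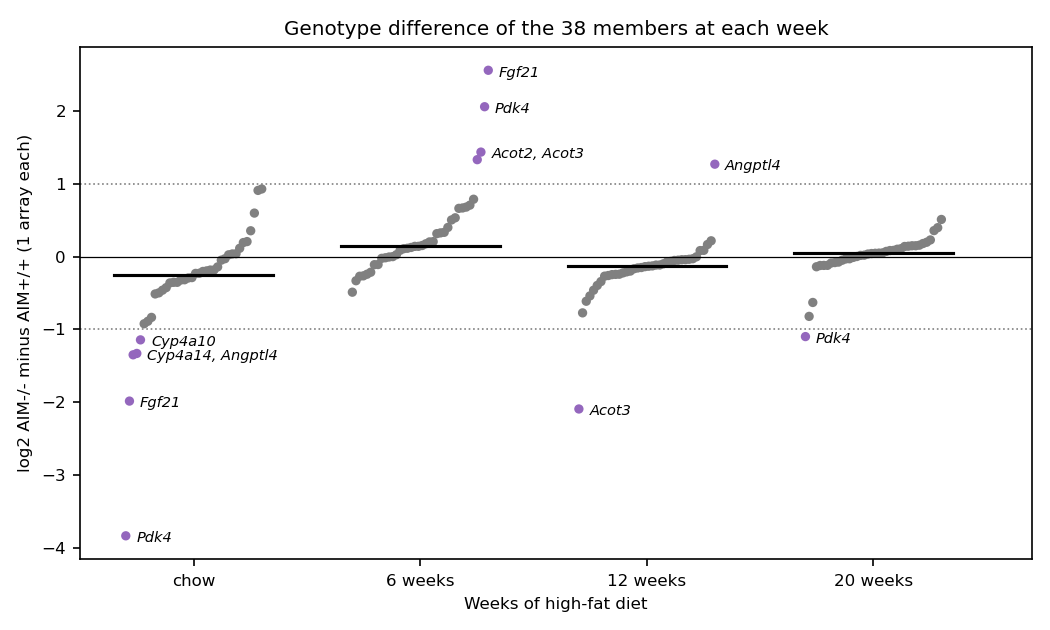
Log2 difference of knockout minus wild type for the 38 members at each week, 1 array against 1, members in order of size within a week; bars are medians, dotted lines mark 2-fold, and members beyond them are named. The medians were -0.26 on chow, 0.15 at 6 weeks, -0.14 at 12 weeks and 0.04 at 20 weeks.

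By compartment, the chow difference had medians of -1.14 for microsomal, -0.31 for peroxisomal and -0.19 for mitochondrial members. In the same order the medians were 0.50, 0.37 and 0.12 at 6 weeks. They were -0.27, -0.15 and -0.12 at 12 weeks, while the 20-week medians were -0.12, 0.12 and 0.07. The medians had 1 sign in all 3 compartments at each of the earlier times.

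Whether the diet difference depends on genotype was asked with the interaction of both. No member was called by limma, against 0% of all genes, and 4 had an unadjusted p under 0.05, against 4.43% of all genes. Vnn1 and Vnn3 had a larger diet difference in the knockout, by 0.94 (SE 0.34) and 0.83 (SE 0.32). Ppara and Cpt1a had a smaller one, by -0.94 (SE 0.23, adjusted p = 0.767) and -0.93 (SE 0.35). Each rests on the single chow array of a genotype. Over all members, 30 of 38 interaction coefficients lay above 0, with a median of 0.23 against -0.02 over all genes. The share of all genes above 0 is not given here, and all these coefficients rest on the same chow arrays. For Pdk4 the interaction was 4.11 (SE 1.73, adjusted p = 0.999996).

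Beyond the members, 119 of 133 other listed genes of the pathway were measured. By diet 9 rose and 1 fell (2.33% of all genes were called), and 74 coefficients lay above 0 (47.3% of all genes), with a median of 0.12. By genotype, either time contrast and the interaction, limma called 0 of them, with 1, 23, 20 and 7 at an unadjusted p under 0.05. The shares of all genes at that p were 5.59%, 17.7%, 13.3% and 4.43%. Of 15 genes for uptake and activation, Cd36, a fatty acid transporter, rose by 2.34 (SE 0.21, adjusted p = 0.0288) and Fabp2, a fatty acid binding protein, by 1.74 (SE 0.12, adjusted p = 0.0238). Aldh3a2, the fatty aldehyde dehydrogenase that follows the Cyp4a step, rose by 1.56 (SE 0.14, adjusted p = 0.0288), from 4967 and 4166 on chow to between 12004 and 15396, while the other 6 omega-oxidation genes were not called. Of these 7 genes 2 had a coefficient above 0, and the group's median was -0.60. All 7 had an unadjusted p under 0.05, against 25.2% of all genes. Cyp4f14, a leukotriene and fatty acid hydroxylase, had a difference of -1.29 (SE 0.21, adjusted p = 0.0554). Limma called 0 of 31 other peroxisomal genes, of which 20 had a coefficient above 0 and 13 an unadjusted p under 0.05. Of 27 other mitochondrial genes, Cpt1b, a carnitine palmitoyltransferase best known from muscle, rose by 1.49 (SE 0.21, adjusted p = 0.0481) and Slc22a5, the plasma membrane carnitine transporter, by 1.45 (SE 0.15, adjusted p = 0.0362).

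Of 6 ketogenesis genes, Bdh1, which makes 3-hydroxybutyrate, rose by 0.98 (SE 0.10, adjusted p = 0.0356) and Bdh2, a cytosolic dehydrogenase, fell by 1.36 on the log2 scale (SE 0.18, adjusted p = 0.0467). Among 18 other known targets, Mgll, monoglyceride lipase, rose by 2.02 (SE 0.19, adjusted p = 0.0303). The lipid droplet proteins Cidec and Cidea rose by 4.75 (SE 0.40, adjusted p = 0.0268) and 7.58 (SE 0.80, adjusted p = 0.0362), the latter from a chow level where only 1 of 2 arrays was well above background. Of the 15 receptor partners and coactivators, 0 were called by limma and 2 had an unadjusted p under 0.05.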

How the data were processed

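Total RNA was labelled with Cy3 for one-colour Agilent arrays, per the labels' protocols. Spot intensity values, already corrected for background and spatial trend, came from the authors' use of Agilent Feature Extraction (version 9.5 by the submitters' processing notes, 9.5.3.1 per the file headers). The authors' deposited log2 table matched these values, minus each array's 75th percentile, within 0.1 for at least 99.9% of probes.

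Each array lost its 1639 control spots and 75 to 130 outlier spots, and log2 values were scaled by the 75th percentile. Probes well above background on at least 2 of 8 arrays were kept, and a gene was read from its brightest kept probe. Of the members 10 have several probes, and 10 of 11 other measured probes had the same sign of the diet difference. All 15338 genes entered models in limma (3.58.1, under R 4.3.3): week and genotype with 3 residual degrees of freedom, and for the interaction genotype by chow or diet with 4. No group has a replicate. In the model of week and genotype the error comes from how the genotype difference varies between weeks. In the interaction model it comes from the spread across diet weeks within a genotype. Neither is a spread between replicate animals, and 8 arrays limit the precision. Single weeks were counted at 2-fold with 1 or both arrays well above background. An array that was not so marked was replaced by its lowest signal that was, giving "at least" folds. The fits were run on simulated data with independent noise for each gene and no shift shared by the genes of an array. That run checks the fitting and not the error of these arrays.

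Members and lists were chosen with earlier results of these data known. Values on every array were printed for members called by any contrast, the 2 largest diet differences of each role, the 3 largest genotype differences counted at each week, and Ppara. Genes named beyond this rule were chosen after their values were seen. Alternatives were other scalings, background corrections, filters, probe rules, a variance trend, the deposited table and leaving out arrays. Fitting probes by themselves and recounting the non-overlap without arrays were added after the data were seen.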

Additional observations from a re-analysis of the deposited data

Results flagged for a closer look

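Crot, the peroxisomal carnitine octanoyltransferase, moved in opposite directions with diet in the genotypes. It gave 14296, 14288, 12690 and 12116 at 0, 6, 12 and 20 weeks in the wild type and 10011, 16459, 13459 and 11390 in the knockout. All 3 wild-type diet arrays lay below their chow array, the one at 6 weeks by almost nothing, and all 3 knockout diet arrays above theirs. The mean difference from chow was -0.14 in the wild type and 0.44 in the knockout on the log2 scale, 0.58 apart. In the limma interaction fit this was 0.58 with an SE of 0.35 and an adjusted p of 0.999996, and it did not pass. Each direction rests on 1 chow array, and beyond that fit the difference was not tested. Of all genes, 1016 (6.62%) split in the same way.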

How the results depend on the processing

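The count of 5 members called by diet was 14 with normexp background correction, 0 without a filter on dim probes, 14 of 36 measured with probes well above background on all 8 arrays, and 17 with a variance trend. It ranged from 0 to 7 with arrays left out. Over all genes these settings called 693, 27, 905 and 1047, against 358. With the mean of a gene's probes 6 members and 258 of all genes were called. The added member was Cyp4a12, whose probes had diet differences of -0.77 and -3.71. The members' median diet difference kept its sign throughout, at 0.50 to 0.85 with arrays left out and 33 to 37 members above 0. The microsomal median of 1.01 was 0.57 with the mean of a gene's probes, and 0.43 to 1.60 with arrays left out. The peroxisomal and mitochondrial medians stayed at 0.58 to 0.85 and 0.40 to 0.59. At 6 weeks the 4 members 2-fold apart became 2 with normexp and 2 with the strict filter, and at 12 weeks the 2 became 1 with the strict filter. The strict filter left 12444 genes to test, and the cause of these changes was not tested for any setting. Diet differences that changed sign were those of Acaa2 (0.21 quantile, 0.018 normexp), Fabp1 (0.17 quantile) and Cyp4a10 (-0.26 with another probe). With arrays left out, Crot ranged from -0.14 to 0.44, Pdk4 from -0.43 to 3.67, Acaa2 from -0.075 to 0.039 and Fabp1 from -0.068 to 0.051. The counts by genotype, by both time contrasts and by interaction were 0 members in every setting that could be fitted. No paired analysis was possible because each group holds 1 array and the groups share only 1 replicate number; the week term of the model already compares the genotypes within a week.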
